A study of Mus musculus with 52 samples.

Results

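The genes described here are Trp53, which encodes the transcription factor p53, and 8 genes that p53 is known to act on: Mdm2, Ccng1, Phlda3, Bax, Bbc3, Pmaip1, Aen and Sesn2. They were chosen by symbol, and each of the 9 was found among the 49466 genes of both count tables. The cells were mouse burst-forming unit-erythroid (BFU-E) progenitors, early cells of the red cell lineage, sorted at embryonic day 14.5 from the liver of C57/Bl6J fetuses after removal of cells with markers of other lineages. Single founders were kept in wells that held the synthetic glucocorticoid dexamethasone at 100 nM or lacked it. A founder that had divided once by 16 hours yielded 2 daughters, and polyadenylated RNA was sequenced from each daughter on its own. There were 13 dexamethasone pairs and 13 untreated pairs of daughters. The untreated wells had the same medium without the drug, and all cells were of 1 strain with no engineered allele named in the labels.

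The protein p53 is kept low in unstressed cells because Mdm2, a ubiquitin ligase that is itself a p53 target, marks it for destruction. When DNA damage, ribosome assembly defects or other stress releases that brake, p53 binds DNA at paired decamers and raises genes for cell cycle arrest, cell death, nucleotide and redox metabolism. In red cell progenitors it is best known from ribosomal protein deficiencies, in which its activation causes loss of erythroid cells. Because p53 is controlled largely at the protein level, a Trp53 transcript level is not a measure of p53 activity.

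Sequences around the transcription start bear on how the listed genes are tied to p53, so the best match to a full p53 site of 20 bases, that is 2 adjoining copies of the p53 consensus decamer, was taken from each 300-base RefSeq promoter window on GRCm38.p6. The search allowed no spacer, and the consensus reads the same on both strands. Windows were used here for 8 of the 9 genes. Those with at most 3 mismatches are shown 5′ to 3′ on the strand of the gene, with the site in capitals and 5 flanking bases on each side in lower case.
Ccng1: aggccAGACCTGCCCGGGCAAGCCTtggca
Bax: tgacaAGCATATCCCAGGCAAGCTTtgaac
Aen: aagccGGGCTTGTCCGGGCAAGGAGcttcc
Bbc3: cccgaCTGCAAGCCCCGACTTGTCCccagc
Trp53: cggaaGGACTTGCCCTTACTTGTTAtggcg
The Ccng1 stretch lies at chr11:40755457-40755486 on the minus strand, its site begins 195 bases upstream of the start, and it differs from the consensus at 1 base. Matches that close occurred in 0.0883% of all 32851 promoter windows. The other 4 differ at 3 bases, and 6.29% of windows held a site with 3 or fewer mismatches. The Bax stretch (chr7:45467085-45467114, minus strand) has its site 211 bases upstream, the Bbc3 stretch (chr7:16309481-16309510, plus strand) 97 bases upstream of 1 of its RefSeq starts, and the Trp53 stretch (chr11:69580279-69580308, plus strand) 75 bases upstream. The Aen stretch (chr7:78895932-78895961, plus strand) lies 121 bases upstream of 1 of its RefSeq starts. Mdm2, Phlda3 and Sesn2 had no match closer than 5 mismatches in these windows, which cover little beyond the start. A match of this kind is a description of letters and was not tested for binding.

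Depth limited what could be seen. Pairs in which both libraries held at least 100000 counts were used, which kept all 13 dexamethasone pairs and 10 of 13 untreated pairs, or 26 and 20 libraries, and left out untreated pairs 4, 7 and 12. Library totals ran between 210383 and 4176347 counts in the dexamethasone libraries and between 405058 and 5606500 in the untreated ones. Levels are given as CPM, counts scaled to the total of the library, and 10 CPM serves as the mark of a clear signal. Not all cells carried a red cell profile. In 5 dexamethasone pairs (6, 7, 9, 10 and 12) and 2 untreated pairs (9 and 10) at least 1 daughter held more Mpo, the granulocyte enzyme myeloperoxidase, than Gata1, the erythroid master regulator. Some daughters in these pairs held Gata1 as well. The daughters of dexamethasone pair 9 held 477 and 648 CPM of Gata1 with 556 and 451 CPM of Mpo. Cell 2 of dexamethasone pairs 10 and 12 held 176 and 513 CPM of Gata1. At least 3 of 8 erythroid markers reached 10 CPM in 21 of 26 dexamethasone and 16 of 20 untreated libraries, at least 3 of 10 granulocyte and monocyte markers in 7 and 5, and at least 3 of 7 megakaryocyte markers in 4 and 3. The summed granulocyte and monocyte list ran between 0 and 26567 CPM with dexamethasone and between 0.278 and 41617 CPM without. No library reached that count of markers for mast cells, lymphoid cells, macrophages, hepatocytes or endothelium.

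Per kilobase of exon, Trp53 and Bax were the highest of the 9 genes and Sesn2, Bbc3 and Pmaip1 the lowest. Over the 23 pairs Trp53 averaged 113 ± 56.4 RPKM, which is CPM divided by the exon length in kilobases, and Bax 101 ± 61.9 RPKM (SD, n = 23). Ccng1 followed at 42.2 ± 41.1 RPKM, Aen at 26.7 ± 22.8, Phlda3 at 15.6 ± 25.6 and Mdm2 at 14.9 ± 16.5. Sesn2 averaged 4.27 ± 7.81 RPKM, Bbc3 2.31 ± 4.99 and Pmaip1 0.611 ± 2.00. No gene stood above its neighbour in this order by more than the spread of their paired differences: Trp53, for example, was above Bax in 14 of 23 pairs. Trp53 and Bax had a count in all 46 libraries, Ccng1 in 44, Aen in 42 and Mdm2 in 36. Phlda3 had one in 19, Sesn2 in 12, Bbc3 in 8 and Pmaip1 in 3. A median of 4.5 of the 9 genes reached 10 CPM in a dexamethasone library and 5 in an untreated library.

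**Figure D1:**
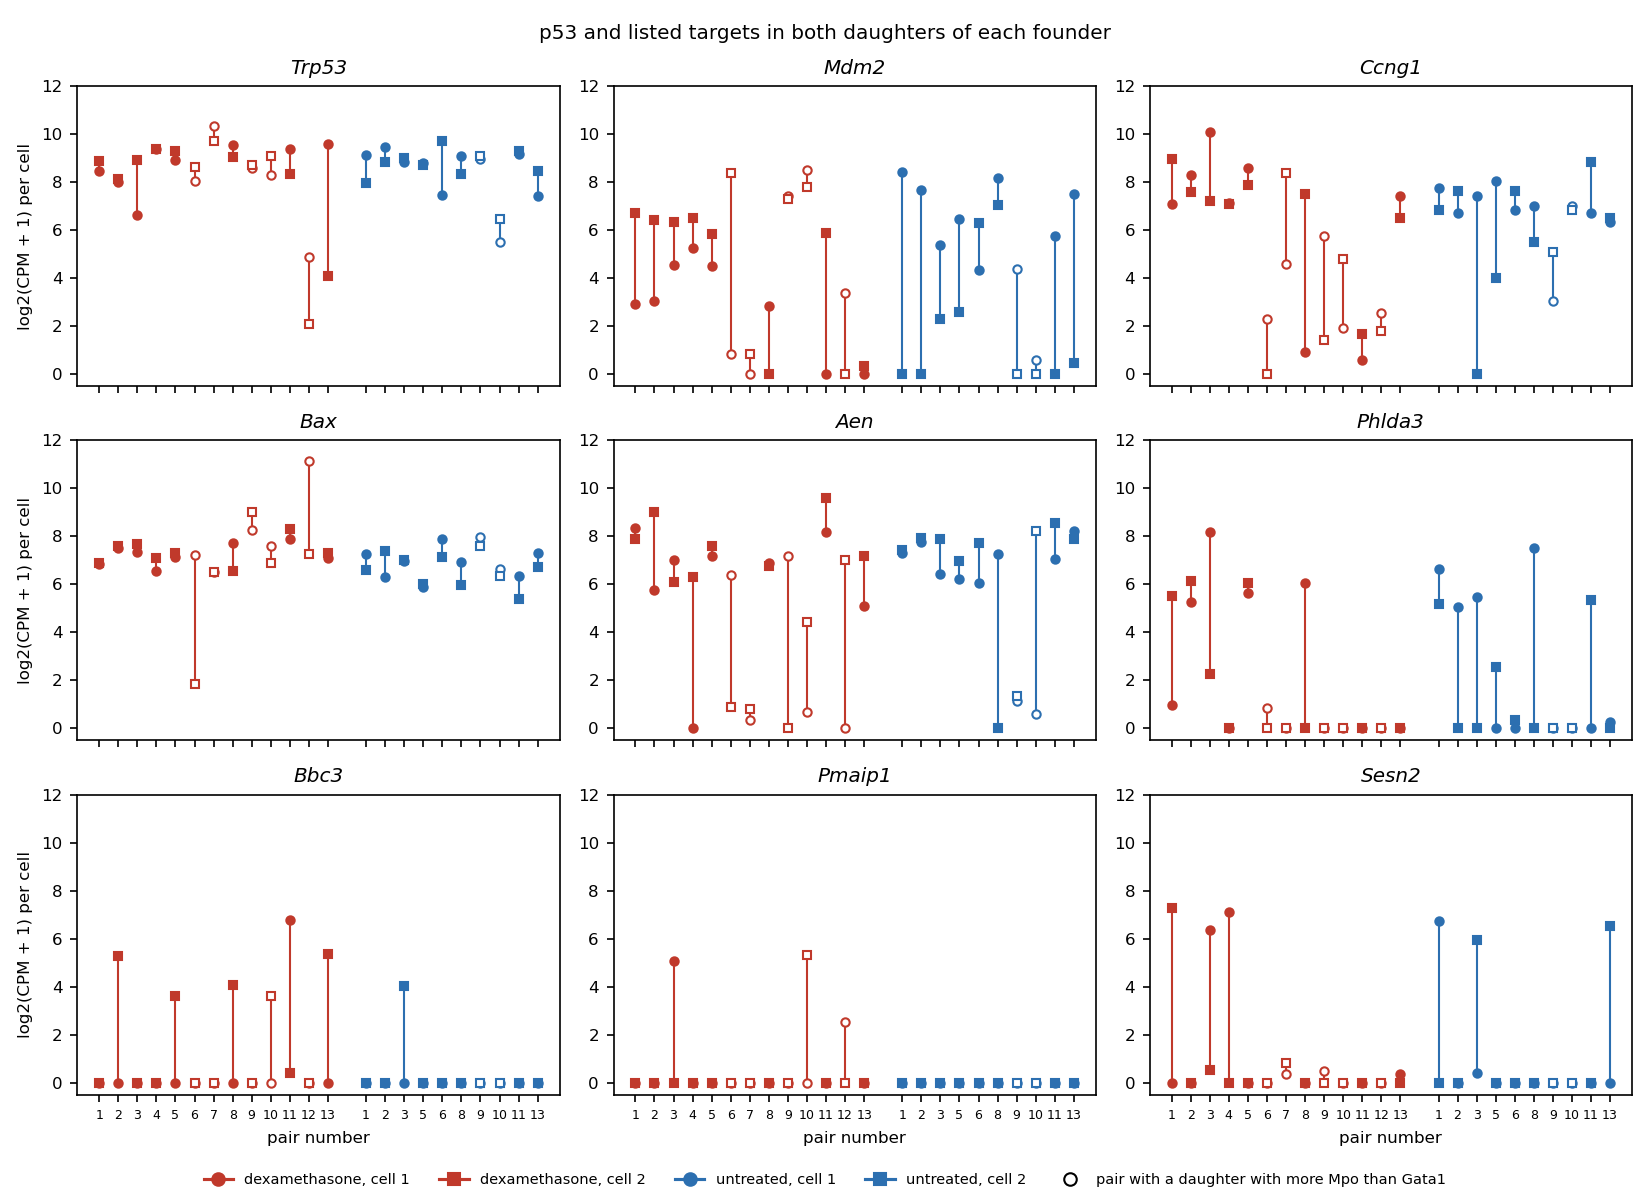
Level of each gene in both daughters of every pair, as log2(CPM + 1), with dexamethasone pairs on the left in red and untreated pairs on the right in blue. Circles are cell 1, squares cell 2, lines join the daughters of 1 founder, and open symbols are pairs with a daughter that held more Mpo than Gata1. Trp53 and Bax are above 10 CPM in nearly all daughters, while Mdm2 spans from 0 to over 8 within single pairs and Bbc3, Pmaip1 and Sesn2 stand above 10 CPM in at most 1 daughter.

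Trp53 (chromosome 11, 69580359 to 69591873, plus strand, GRCm38) was at 10 CPM or more in 25 of 26 dexamethasone and 20 of 20 untreated libraries. On the summed counts of a pair it had a lowest, median and highest level of 6.97, 414 and 1171 CPM with dexamethasone, against 71.4, 461 and 658 CPM without. The groups overlapped throughout, and the extremes on both sides were dexamethasone pairs. The highest was pair 7, whose daughters held 1292 and 830 CPM, and the lowest pair 12, whose daughters held 28.5 and 3.27 CPM. In pair 7 the daughters held 5746 and 4621 CPM of Mpo with 1.34 and 0 CPM of Gata1. The daughters of pair 12 differed in these markers, with 5633 CPM of Mpo and 14.3 CPM of Gata1 in cell 1 but 7.35 and 513 CPM in cell 2. Also among the pairs with more Mpo than Gata1 is untreated pair 10, the lowest untreated pair with daughters at 44.2 and 88.2 CPM. In the other 16 pairs every daughter reached 10 CPM, and the widest gap was in dexamethasone pair 13, with 755 CPM in cell 1 and 16.1 CPM in cell 2. The pseudogene Trp53-ps drew only 36 counts in the libraries used, against 57188 for Trp53.

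Mdm2 (chromosome 10, 117688875 to 117710758, minus strand), the ubiquitin ligase that holds p53 down, reached 10 CPM in only 1 daughter in 11 of 23 pairs. Aen, Phlda3 and Bbc3 each did so in 7 pairs. Whether a 0 in a library was an absent transcript or a missed one was not tested. By library, Mdm2 reached 10 CPM in 14 of 26 dexamethasone and 11 of 20 untreated libraries. Its pair level ran over 0.136, 49.1 and 284 CPM (lowest, median, highest) with dexamethasone, against 0.194, 59.5 and 218 CPM without. These ranges overlapped almost wholly. With dexamethasone both daughters reached 10 CPM in 5 of 13 pairs and 1 daughter in 4, while in untreated wells both did so in 2 of 10 pairs and 1 daughter in 7. Dexamethasone pair 6 had 0.786 and 328 CPM, and dexamethasone pair 9, by contrast, 170 and 154 CPM. In untreated pair 1 the daughters held 342 and 0 CPM, and in untreated pair 2 they held 202 and 0 CPM. The absolute difference between daughters was 2.55 ± 2.23 log2 units with dexamethasone and 4.40 ± 2.76 without (SD, n = 13 and 10 pairs). That difference of -1.85 did not pass (two-sided permutation p = 0.0929, limma adjusted p = 0.992).

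Ccng1 and Phlda3 act on growth signals. Ccng1 encodes cyclin G1, which brings a phosphatase to Mdm2, and Phlda3 a small lipid-binding protein that holds back the kinase Akt. Ccng1 (chromosome 11, 40748552 to 40755311, minus strand) was at 1.39, 103 and 637 CPM per pair (lowest, median, highest) with dexamethasone, against 21.8, 136 and 293 CPM without. Dexamethasone pairs made up both ends of the range, and the groups overlapped. It reached 10 CPM in 17 of 26 dexamethasone and 18 of 20 untreated libraries. Phlda3 (chromosome 1, 135766119 to 135769136, plus strand) was at 0, 0 and 154 CPM per pair with dexamethasone, against 0, 8.39 and 101 CPM without. Most libraries had none of it: 7 of 26 dexamethasone and 6 of 20 untreated libraries reached 10 CPM, and both daughters did so in 2 and 1 pairs.

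Of the death genes, Bax was present in nearly every cell, Aen in most, and Bbc3 and Pmaip1 in few. Bax, whose protein perforates the outer mitochondrial membrane, lies on chromosome 7 (45461697 to 45466898, minus strand). It was at 53.4, 150.04 and 458 CPM per pair (lowest, median, highest) with dexamethasone, against 58.9, 126 and 218 CPM without. The groups overlapped, and the highest values were in the dexamethasone pairs. It was below 10 CPM in 1 library only, cell 2 of dexamethasone pair 6, where it stood at 2.59 CPM. The highest level, 2234 CPM, was in cell 1 of dexamethasone pair 12, the library with the fewest counts, and its sister held 153 CPM. Its annotation shares 192 exonic bases with the overlapping gene Gm45808, to which 0 counts were assigned. Aen (chromosome 7, 78895854 to 78911209, plus strand), a nuclease that degrades DNA in dying cells, was at 0.397, 99.2 and 580 CPM per pair with dexamethasone, against 1.38, 169 and 266 CPM without. The lowest pairs in both groups were near 0, and most others exceeded 10 CPM.

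Bbc3 and Pmaip1 encode Puma and Noxa, BH3-only proteins that free Bax from its guardians. Bbc3 (chromosome 7, 16308393 to 16318205, plus strand) reached 10 CPM in 6 of 26 dexamethasone and 1 of 20 untreated libraries. The 6 came from 6 pairs (2, 5, 8, 10, 11 and 13) and the 1 from untreated pair 3. Per pair it was at 0, 0 and 43.3 CPM (lowest, median, highest) with dexamethasone, against 0, 0 and 7.07 CPM without, so that the groups overlapped at 0. The highest cell, in dexamethasone pair 11, held 108 CPM, against 15.1 CPM in the highest untreated cell. At a matched depth of 200000 counts a read would be met in 22.4% of dexamethasone and 4.78% of untreated libraries. The daughters of a pair differed by 2.18 ± 2.55 log2 units with dexamethasone and 0.40 ± 1.27 without, which did not pass (two-sided permutation p = 0.0741, the smallest of 9 such tests, unadjusted). Both daughters reached 10 CPM in 0 pairs, so this difference mostly restates the level of the single cell with Bbc3. Pmaip1 had counts in 3 of 26 dexamethasone and 0 of 20 untreated libraries. The untreated libraries come from 10 founders, and 0 of 10 allows a share of founders with a count of up to 30%. Its highest cell held 39.1 CPM. Sesn2 (chromosome 4, 132492032 to 132510501, minus strand), a sestrin that restrains growth signalling through mTORC1, reached 10 CPM in 3 of 26 dexamethasone and 3 of 20 untreated libraries. Per pair it was at 0, 0 and 78.4 CPM with dexamethasone, against 0, 0 and 67.8 CPM without, with most pairs of both groups near 0.

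**Figure D2:**
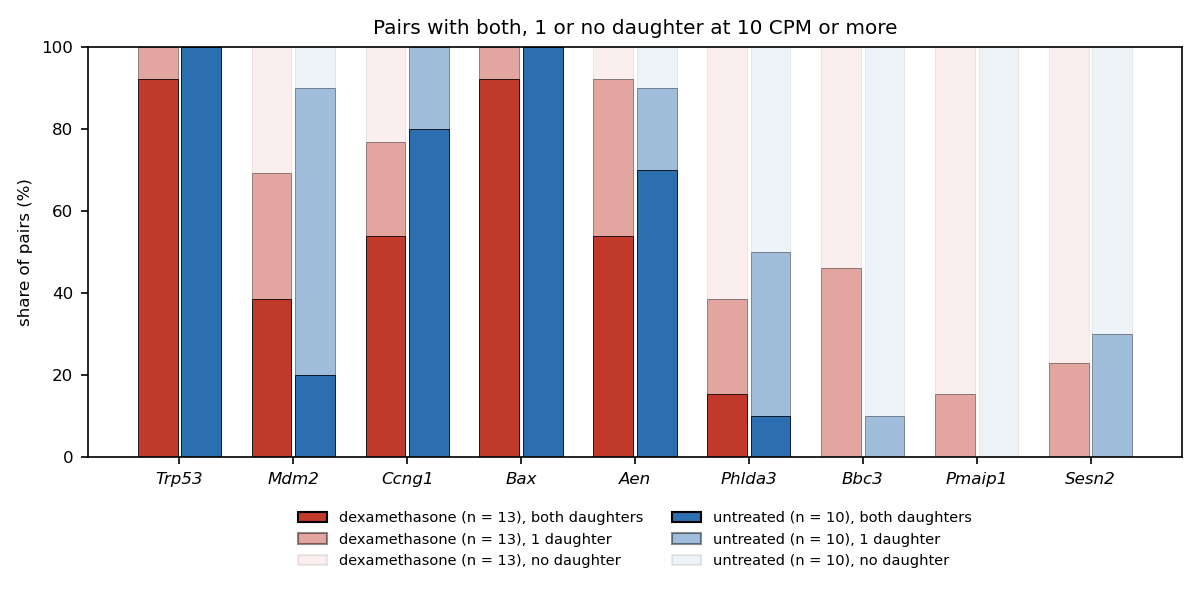
Share of pairs, in percent, in which both daughters (dark), 1 daughter (pale) or no daughter (near white) reached 10 CPM, with dexamethasone pairs (red, n = 13) left of untreated pairs (blue, n = 10) for each gene. Trp53 and Bax are at 10 CPM in both daughters of nearly every pair, and Bbc3, Pmaip1 and Sesn2 never in both.

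The next comparison asked whether daughters of 1 founder resembled each other more than cells of different founders in the same treatment. The mean difference was smaller within pairs for the most evenly present genes, by less than its SD: the daughters' Trp53 levels differed by 0.98 ± 1.24 log2(CPM + 1) units (SD, n = 23), against 1.54 between founders, and Bax by 0.85 ± 1.26 against 1.13. Ccng1 differed by 2.14 ± 1.98 within and 3.02 between founders, and Aen by 2.61 ± 2.74 and 3.28. Mdm2 gave 3.36 ± 2.59 within pairs and 3.59 between founders, the widest daughter difference of the 9 genes. The difference within pairs was larger than between founders for Bbc3 (1.40 ± 2.24 against 1.31) and Sesn2 (1.75 ± 2.91 against 1.65). In the 16 pairs with no daughter above Gata1 in Mpo, the Trp53 values were 1.03 ± 1.38 within pairs and 1.03 between founders (SD, n = 16). For Mdm2 the direction turned there, with 3.73 ± 2.52 within pairs and 3.27 between founders (SD, n = 16).

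**Figure D3:**
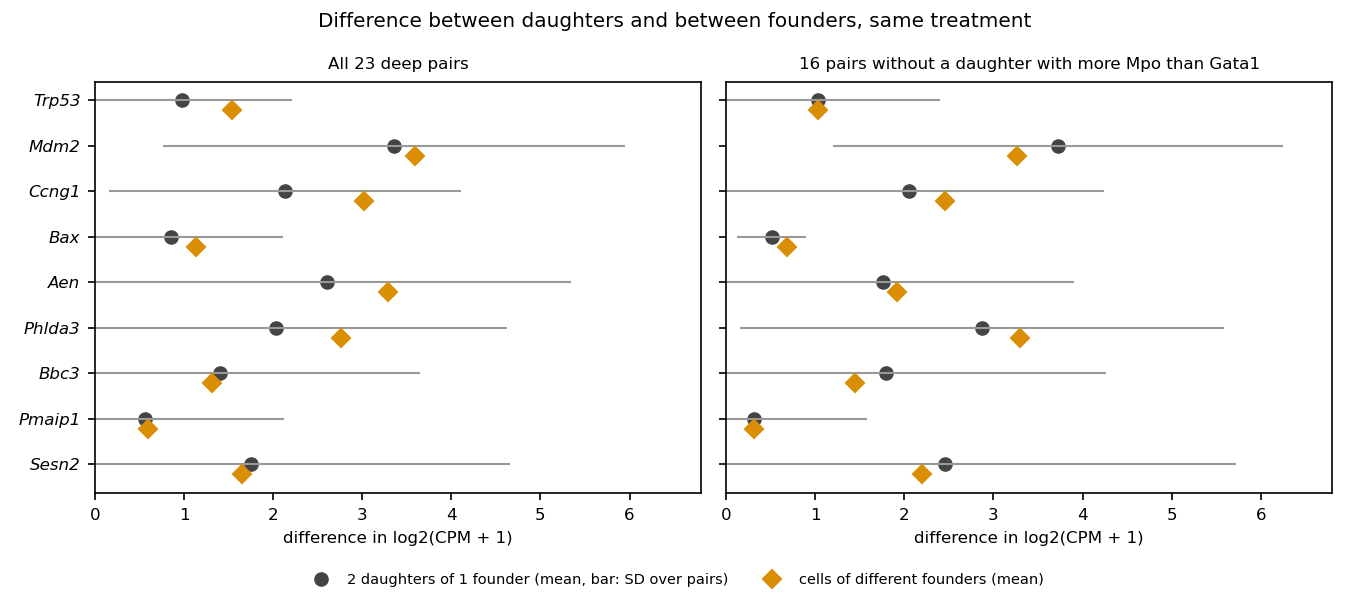
Mean difference in log2(CPM + 1) between the daughters of 1 founder (circles, bars are the SD over pairs) and between cells of different founders in the same treatment (diamonds), for all 23 pairs on the left and for the 16 pairs without a daughter with more Mpo than Gata1 on the right. The diamond lies to the right of the circle for Trp53, Ccng1, Bax, Aen and Phlda3 in all 23 pairs, and slightly so for Mdm2 and Pmaip1. For Trp53 it is level with the circle in the 16. Diamonds are drawn slightly below circles so that both can be seen.

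Founder differences were tested with edgeR's quasi-likelihood test on the spread between pairs against that between daughters. It called 271 of 8015 genes, or 3.38%, and 1 of the 6 listed genes with enough counts, Bax (F = 6.07, edgeR adjusted p = 0.000717). This call rests on dexamethasone pair 12: without that pair the edgeR adjusted p was 0.527, and without the 7 pairs with more Mpo than Gata1 it was 0.962. With plate column, as read from the library codes, as a term the edgeR adjusted p was 0.122. In limma, which works on log values and called 8.12% of genes, Bax had an adjusted p of 0.454, while Trp53 was called with an adjusted p of 0.0378. The Trp53 call was absent without those 7 pairs (limma adjusted p = 0.858), and edgeR gave it 0.785. Mdm2, Ccng1, Aen and Phlda3 had edgeR adjusted p-values of 0.763, 0.426, 0.637 and 0.244. Bbc3, Pmaip1 and Sesn2 had too few counts for this test.

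Lineage markers went with several of the levels. In the 7 pairs with a daughter above Gata1 in Mpo, Aen averaged 2.79 ± 1.40 log2(CPM + 1) per pair, against 6.86 ± 1.52 in the other 16 pairs (SD, n = 7 and 16). It reached 10 CPM in 5 of those 14 libraries and in 30 of the other 32. Of these 5, cell 1 of dexamethasone pair 9 and cell 2 of dexamethasone pairs 10 and 12 held 477, 176 and 513 CPM of Gata1. Cell 1 of dexamethasone pair 6 and cell 2 of untreated pair 10 held 1.57 and 0.63 CPM of it. Ccng1 averaged 3.95 ± 2.11 against 6.50 ± 1.97, and Phlda3 0.06 ± 0.16 against 2.64 ± 2.22. Phlda3 reached 10 CPM in 0 of the 14 libraries and in 13 of the other 32, and Sesn2 in 0 and 6. Bax was at 7.20 ± 1.56 against 7.00 ± 0.57, and Trp53 was at 7.74 ± 2.24 against 8.61 ± 0.67. This split was made from the same libraries, so these values are a description without a test. The split takes 5 of 13 dexamethasone and 2 of 10 untreated pairs. Values without those pairs are given beside the comparison of treatments, and the part of lineage in them was not tested.

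Dexamethasone was then compared with no treatment on the summed counts of each pair. EdgeR's quasi-likelihood test called 0 of 7190 genes, or 0%, with 71 at an unadjusted p under 0.05, and DESeq2 and limma also called 0 (173 and 304 unadjusted). None of the 6 listed genes that passed the expression filter was called, each with an edgeR adjusted p of 1.00. Bax had the largest change, a log2 fold change of 0.66 ± 0.39 (SE), and its 23 left-one-out values stayed between 0.44 and 0.91. Trp53 was at 0.06 ± 0.42, Mdm2 at 0.05 ± 0.94, Ccng1 at 0.15 ± 0.71, Aen at -0.04 ± 0.68 and Phlda3 at 0.02 ± 1.54. The median over the genes tested was 0.02. Standard errors of this size leave room for changes of more than 2-fold in either direction for Mdm2, Ccng1, Aen and Phlda3. Without the 7 pairs with more Mpo than Gata1, Mdm2 was at -1.37 (edgeR unadjusted p = 0.113), Ccng1 at 0.60, Aen at 0.35 and Bax at 0.62, with no gene called. Bbc3, Pmaip1 and Sesn2 did not pass the filter. In a fit without it, where edgeR called 0 of 18628 genes and 3331 had an unadjusted p under 0.05, Bbc3 was at 3.54 ± 1.93 (SE, adjusted p = 0.385) and Sesn2 at -0.01 ± 1.81. Pmaip1, at 0 in every untreated library, had an edgeR adjusted p of 0.0721 there and is given without a fold. The p53 target genes Perp, Trp53inp1 and Ddit4 had the same adjusted p in that fit, so the value is not particular to Pmaip1.

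**Figure D4:**
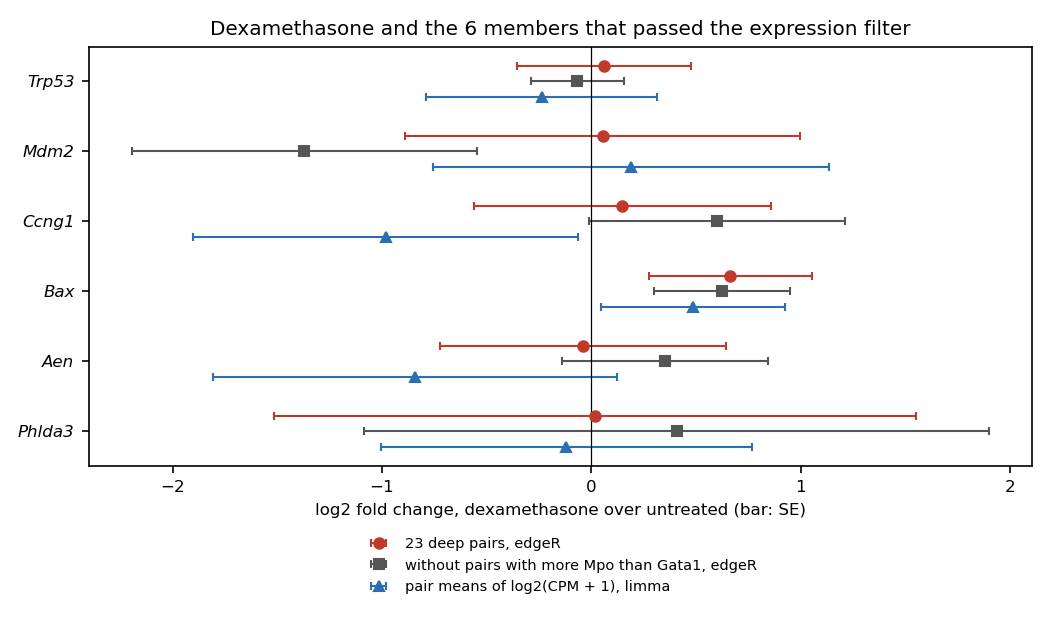
Log2 fold change of dexamethasone over untreated for the 6 genes that passed the expression filter, with bars of 1 SE. Circles are the 23 pairs in edgeR, squares the same without pairs with more Mpo than Gata1, and triangles pair means of log2(CPM + 1) in limma. Bax lies right of 0 in all 3, and the other 5 genes change sides between the fits.

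Library codes hold a number and a letter, read here as plate column and plate row, although no label says so. The sets of columns 1 to 4 and 5 to 7 were made for this comparison. Each set held both treatments (8 dexamethasone and 6 untreated pairs, and 5 and 4 pairs). Single columns other than column 6 held 1 treatment each, so effects of a single column and of the drug cannot be told apart. The column sets also differ in lineage markers. Of the 7 pairs with more Mpo than Gata1, dexamethasone pairs 6 and 7 lay in columns 1 to 4. Dexamethasone pairs 9, 10 and 12 and untreated pairs 9 and 10 lay in columns 5 to 7. The part of lineage in the values by column set was not tested. Bax had a log2 fold change of 0.18 in columns 1 to 4 and 1.23 in columns 5 to 7, Ccng1 of 0.72 and -1.84, and Mdm2 of -0.84 and 1.82. The difference between column sets was called by edgeR for 0 of 7190 genes, or 0%, with 451 at an unadjusted p under 0.05, and the interaction was -2.55 for Ccng1 (edgeR adjusted p = 0.869). Phlda3 had 0 counts in every dexamethasone library of columns 5 to 7, and no fold is given for it there. Whether the daughters of a pair differed more under dexamethasone was tested by limma on absolute differences, which called 0 of 8015 genes, or 0%, with 325 at an unadjusted p under 0.05. Trp53 daughters differed by 1.17 ± 1.54 log2 units with dexamethasone and by 0.73 ± 0.68 without (two-sided permutation p = 0.467), and Bax daughters by 1.05 ± 1.64 with it and 0.59 ± 0.36 without (two-sided permutation p = 0.547). Without the 7 pairs with more Mpo than Gata1 the Bax difference between treatments turned to -0.29 log2 units, against 0.46 over all 23 pairs (limma adjusted p = 0.951 and 0.992).

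A wider list of 49 genes of the p53 pathway, all found in the tables, covered regulators and other targets. Of its members 25 passed the filter for the dexamethasone comparison, 10 with a positive and 15 with a negative log2 fold change, and 0 were called. Their median was -0.11, against 0.02 over all genes tested. The 4 with the smallest p were Cop1, a ubiquitin ligase for p53, at -1.69 ± 1.20 (SE), the acetyltransferase gene Ep300 at 1.87 ± 1.42, the p53 regulator gene Gtse1 at 1.27 ± 1.02 and the apoptosome gene Apaf1 at 1.70 ± 1.69. Among 16 regulators of p53, 14 were tested and 6 were positive. Mdm4, the Mdm2 relative that masks p53, was at 0.50 ± 0.90 and reached 10 CPM in 15 of 26 dexamethasone and 14 of 20 untreated libraries. Cdkn1a, which encodes the cell cycle inhibitor p21 and is the best known p53 target, was at 1.16 ± 1.41 and reached 10 CPM in 10 of 26 dexamethasone and 7 of 20 untreated libraries. In the founder test 1 of 28 tested list genes was called, Steap3, an iron reductase of red cell precursors (edgeR adjusted p = 0.0412), a share near the 3.38% of all genes tested. Its edgeR adjusted p was 0.570 without the 7 pairs with more Mpo than Gata1, 0.162 with plate column as a term and 0.0314 with the scaling of DESeq2. Limma, which called 8.12% of genes, called Steap3 (adjusted p = 0.00137) and the death target Pidd1 (adjusted p = 0.0466). Without those 7 pairs limma called neither (adjusted p = 0.126 and 0.193). It then called Mdm4 (limma adjusted p = 0.0427), among 217 of 7343 genes.

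Correlations between the listed genes across founders ran in both directions. Over the 23 pair means the highest Pearson correlation between members was 0.53, between Ccng1 and Phlda3, and the next was 0.49, between Aen and Phlda3. The lowest was -0.39, between Trp53 and Bax. Over the 16 pairs without excess Mpo these values were 0.43, 0.099 and -0.31. Other member pairs were wider apart there, with 0.60 for Bax and Bbc3 as the highest and -0.57 for Ccng1 and Bbc3 as the lowest. Bbc3 reached 10 CPM in only 6 of the 32 libraries of those pairs. Trp53 and Mdm2 had a Pearson correlation of 0.31 and a Spearman correlation of 0 over the 23 pairs. For Trp53 and Ccng1 the values were 0.17 and 0, and the Pearson value was -0.24 over the 16 pairs. Among 8015 genes, those closest to Trp53 by Spearman correlation were Pafah2 (0.72), Gas5 (0.71) and Spred1 (0.69), and closest to Ccng1 were Fam46c (0.81), Chuk (0.78) and Kdelc1 (0.76). Bax was closest to the predicted genes Gm8163 (0.63) and Gm12168 (0.62) and to Fam104a (0.63). Pair means share library depth and lineage, and over those 16 pairs the Fam46c value was 0.80 and the Gm8163 value 0.39, so the correlations are given as a description of these pairs.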

How the data were processed

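Per the submitters' processing notes, reads were handled with STAR 2.4 and featureCounts on GRCm38. The authors deposited raw counts per gene, whole numbers without normalization, in 1 table per treatment. How libraries were prepared, and the settings for strand and multimapping reads, is not given in the sources used. No molecular identifiers are mentioned. SDs and SEs were taken over pairs, and the upper bound for Pmaip1 covers the sampling of founders. That bound does not cover transcripts missed in a cell. Members and pathway lists were chosen with earlier results of these data known. The wider list held 49 symbols, of which those called in the main fits, otherwise the 4 with the smallest p, and always Cdkn1a and Mdm4, are named. A few others are named beside the alternative fits.

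The founder with its well was the replicate. Animals are not named in the labels, and p-values therefore reflect how founder cells vary, some of which may come from 1 embryo. Dexamethasone was tested on summed counts of pairs with filterByExpr (minimum count 10, minimum total 15), TMM and the quasi-likelihood test of edgeR 4.0.16 (R 4.3.3), with DESeq2 1.42.0 and limma 3.58.1 beside it. Founder differences used 1 term per pair within treatment on genes that had 5 or more counts in 10 or more libraries. In founder test fits that left out 1 pair the negative binomial dispersion was held at its value over all pairs. In dexamethasone fits that left out 1 pair, filtering and dispersion were redone. Adjustment was by Benjamini-Hochberg over all genes, with a threshold of 0.05. Permutation tests used 100000 resamples. Both edgeR procedures were tested on simulated data with 200 changed genes each. The dexamethasone test recovered 44.7% of simulated 8-fold changes among genes that passed its filter. The founder test recovered 18% of genes given a founder SD of 2 log2 units. Each called 0 unchanged genes, so many true changes of these sizes would be missed. Gene locations came from GENCODE M21 on GRCm38, promoter sequences from RefSeq GRCm38.p6. RPKM used the summed exon length. No library was identical to another and 0 columns were unused.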

Additional observations from a re-analysis of the deposited data

Results flagged for a closer look

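Trp53 in untreated pair 10 had a pair mean of 5.99 log2(CPM + 1), far below the other 9 untreated pairs, of which the lowest was 7.95. Bbc3 in untreated pair 3 had a pair mean of 2.00 where the other 9 untreated pairs were at 0. With 9 values tied at 0 any single pair with counts stands apart in this way, so the Bbc3 value carries no rate of chance. For untied values chance flags about 1 in 20 groups of this size, and the 13 dexamethasone pairs were too many for this rule. Untreated pair 10 is also 1 of the 2 untreated pairs in which a daughter held more Mpo than Gata1, and the part of that difference in the Trp53 value was not tested.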

How the results depend on the processing

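No listed gene was called for dexamethasone under any alternative run, and leaving out each pair gave 0 in every fit. The alternative runs called no other gene either, so this 0 is not particular to the listed genes. It was 0 of 18628 genes without an expression filter, 0 of 6429 with the shallow pairs included and 0 of 7247 without the pairs with more Mpo. Bax kept a positive log2 fold change throughout. The others lay between -0.04 and 0.15 in the main fit, and their signs changed, in some runs to values well away from 0. Trp53 was at -0.24 in limma and -0.067 without the pairs with more Mpo than Gata1. Mdm2 was at -0.0047 in DESeq2 and with its scaling in edgeR, -0.042 without an expression filter and -1.37 without the pairs with more Mpo. Ccng1 was at -0.98 in limma, -0.13 with the shallow pairs included and -0.35 with the plate column set as a covariate. Aen was at 0.15 with the shallow pairs included and 0.35 without the pairs with more Mpo. Phlda3 was at -0.12 in limma and -2.22 with the plate column set as a covariate. With 1 pair left out in turn, Trp53 ran between -0.16 and 0.19 and Mdm2 between -0.35 and 0.36. Ccng1 ran between -0.25 and 0.35 and Aen between -0.50 and 0.11. Phlda3 passed the filter in 21 of these 23 fits and ran between -0.79 and 0.68. The causes were not tested. Pair numbers do not pair the treatments: over 10 shared numbers the correlation of deviations ran between -0.13 and 0.20, and 1 of 10 pairs correlated best with its own number. A replicate block on these numbers called 0 of 6820 genes (130 at an unadjusted p under 0.05) and gave -0.011 for Trp53, -0.37 for Ccng1, 0.0060 for Aen and -0.059 for Phlda3.

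The count of listed genes with founder differences was 1 as reported, 3 without an expression filter (Bax, Phlda3 and Sesn2, where 3313 of 18628 genes were called), 0 without the pairs with more Mpo in edgeR (27 of 7343 genes called) and in limma (217 called, chosen after seeing the data), and 0 with plate column as a term (93 called). Without 1 pair it ran between 0 and 1. Low counts and the spread between founders limit what these tests can show.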

Other observations

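The daughters were numbered 1 and 2 in the labels, and the number goes with the letter read as plate row. Mdm2 was higher in cell 2 in 9 of 13 dexamethasone pairs and higher in cell 1 in 9 of 10 untreated pairs. In dexamethasone pairs 7 and 13 and untreated pair 10 that order rested on 1 count in 1 daughter and 0 in the other. Cell 1 minus cell 2 averaged -1.47 log2(CPM + 1) with dexamethasone (limma adjusted p = 0.984) and 4.00 without (limma adjusted p = 0.941). The difference between treatments was -5.47, with an unadjusted limma p of 0.000367 and an adjusted p of 0.588 over 8015 genes, of which 0 were called and 383 had an unadjusted p under 0.05. Mdm2 was singled out after its values were seen.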
